A study of Mus musculus with 8 samples.

Results

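The Toll-like receptors of these libraries comprised 4 receptors of the cell surface, *Tlr1*, *Tlr2*, *Tlr4* and *Tlr6*, and 4 receptors of endosomes, *Tlr7*, *Tlr8*, *Tlr9* and *Tlr13*. They were analysed with *Myd88*, the adaptor that all 8 of them use, and *Unc93b1*, the chaperone that carries the endosomal receptors out of the endoplasmic reticulum. The 10 genes were found by their symbols among the 54188 genes of the count table, each symbol matched 1 row, and all 10 were among the 17650 genes that had enough counts to be tested.

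RNA was sequenced from CD11b+ cells that had been sorted by their staining with an antibody to Gr-1. Bright cells (Gr-1hi, described as granulocytic) and dim cells (Gr-1lo, described as monocytic) were taken from the spleen (SP) and from the bone marrow (BM), so that the splenic cells could be compared with cells of the same phenotype in the marrow. All cells came from sanroque mice of 20 weeks, which carry 2 *san* alleles of *Roquin* in every cell on a C57BL/6 background and develop a lupus-like disease, and no wild-type library was analysed here. Roquin is a protein that binds RNA and limits messages such as *Icos*, and the allele is not restricted to myeloid cells. Libraries 5 and 6 were SP Gr-1hi, libraries 7 and 8 SP Gr-1lo, libraries 9 and 10 BM Gr-1hi, and libraries 11 and 12 BM Gr-1lo. No label ties a library to a mouse.

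Toll-like receptors recognise molecules that microbes share, and several also bind nucleic acid of the host. TLR2 pairs with TLR1 or TLR6 to bind lipopeptides and TLR4 binds lipopolysaccharide, whereas TLR7 and TLR8 sense RNA, TLR9 senses DNA with unmethylated CpG, and TLR13, a receptor that mice have and humans lack, senses bacterial ribosomal RNA. Binding brings MyD88 to the receptor, which leads to NF-kB and IRF activation and to the release of cytokines. In lupus, TLR7 and TLR9 are studied because self RNA and DNA in immune complexes can reach them in endosomes, and UNC93B1 sets how much of each arrives there.

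The promoters of 4 members are shown first, because *Tlr9* and *Tlr1* were the members that differed most between the Gr-1hi cells of the spleen and the marrow, *Tlr2* was the surface receptor that differed most between the subsets of the marrow, and *Myd88* serves all the receptors. The sequences are those of RefSeq on GRCm38.p6, from 250 bases before the start of transcription to 20 after it, 5′ to 3′ on the strand of the gene. They lie at chr9:106222348-106222617 (plus strand) for *Tlr9*, chr5:64933539-64933808 (minus strand) for *Tlr1*, chr3:83841589-83841858 (minus strand) for *Tlr2* and chr9:119339999-119340268 (minus strand) for *Myd88*. Capitals mark the letters of 3 motifs that were searched on both strands, namely GAGGAA for PU.1, GAAA followed after 2 bases by GAAA for the interferon-stimulated response element (ISRE), and GGG followed after 5 bases by CC for NF-kB.
Tlr9: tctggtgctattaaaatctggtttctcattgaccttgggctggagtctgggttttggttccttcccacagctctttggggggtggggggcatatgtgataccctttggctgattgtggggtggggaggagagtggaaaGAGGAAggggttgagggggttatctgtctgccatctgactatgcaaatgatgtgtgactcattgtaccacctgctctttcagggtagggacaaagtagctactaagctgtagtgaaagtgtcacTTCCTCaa
Tlr1: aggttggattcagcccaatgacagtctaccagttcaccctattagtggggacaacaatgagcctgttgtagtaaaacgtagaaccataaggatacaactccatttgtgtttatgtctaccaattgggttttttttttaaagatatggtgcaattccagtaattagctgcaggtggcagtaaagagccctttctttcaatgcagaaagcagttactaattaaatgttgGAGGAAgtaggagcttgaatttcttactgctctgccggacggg
Tlr2: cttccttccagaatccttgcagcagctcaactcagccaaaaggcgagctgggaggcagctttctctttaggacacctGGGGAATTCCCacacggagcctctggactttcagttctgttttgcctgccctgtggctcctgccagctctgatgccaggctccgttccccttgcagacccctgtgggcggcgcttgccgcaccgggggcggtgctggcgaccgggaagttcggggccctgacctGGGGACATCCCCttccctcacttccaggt
Myd88: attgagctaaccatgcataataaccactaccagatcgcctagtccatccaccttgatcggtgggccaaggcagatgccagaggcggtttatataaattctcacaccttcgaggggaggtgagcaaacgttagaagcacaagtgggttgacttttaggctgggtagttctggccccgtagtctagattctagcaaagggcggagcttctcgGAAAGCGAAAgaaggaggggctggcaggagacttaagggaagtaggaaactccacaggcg
The *Tlr9* promoter held the PU.1 letters at positions -112 to -107 and, on the other strand, at 13 to 18 from the start. The *Tlr1* promoter held them at -23 to -18, in the first of the 2 windows that RefSeq gives for this gene, and the second window held none of the 3 motifs. The *Tlr2* promoter held the NF-kB letters in 2 clusters of overlapping matches, from -173 to -163 and from -9 to 3, and the *Myd88* promoter held the ISRE letters at -40 to -31. Of 32851 RefSeq promoters, cut to the same 270 bases, 25.1% held the PU.1 letters, 3.21% those of the ISRE and 47.9% those of NF-kB, so the PU.1 and NF-kB letters are common in windows of this length. RefSeq windows were found for 7 of the 10 members, and none for *Tlr4*, *Tlr7* and *Unc93b1*. In the other windows, PU.1 letters were found for *Tlr8* and *Tlr13*, ISRE letters for *Tlr6*, and NF-kB letters for the second window of *Tlr6*. These are matches of letters only, and binding was not measured.

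The files held between 33453580 and 68316154 counts per library, and a count of 0 allows up to 0.0348 to 0.124 counts per 1000000 (CPM, scaled by the TMM method), which covers counting error only. *Ly6g*, the antigen of neutrophils that Gr-1 antibodies bind, lay between 330 and 801 CPM in Gr-1hi libraries and between 3.07 and 8.23 in Gr-1lo libraries, and *Itgam*, which encodes CD11b, was at 734 CPM or more in every library. All libraries are labelled female, but *Xist* was counted 12032 times in library 5 and 9898 times in library 7, against no more than 5 times in any other library. The Y-linked *Ddx3y* had 0 counts in library 5 and between 1595 and 4902 in the other 7 libraries, library 7 included. Libraries 5 and 7 are splenic, so the *Xist* difference lies partly along that between spleen and marrow, for genes of any chromosome. Its part was not tested. *Tlr7*, *Tlr8* and *Tlr13* lie on the X chromosome, so values that rest on the spleen are also given without libraries 5 and 7 where a call was lost. Summed over 10 B cell genes, the level was 537 and 360 CPM in SP Gr-1hi libraries, 66.7 and 83.8 in SP Gr-1lo, 19.9 and 16.3 in BM Gr-1hi, and 8.07 and 9.90 in BM Gr-1lo. In a bulk sample, fewer cells of a type and less RNA per cell cannot be told apart.

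The first comparison asked whether splenic Gr-1hi cells differ from those of the marrow in their receptors. *Tlr9* and *Tlr1* were higher in spleen, by 5.91-fold and 3.78-fold, and no member was lower by 2-fold or more. A gene is called here where edgeR's quasi-likelihood test gave an adjusted p (Benjamini-Hochberg, over all genes tested) of 0.05 or less and the fold change (FC) was at least 2. By this rule 2 of the 10 members were called higher and 0 lower, against 14.0% and 1.48% of all genes tested, so the share of members was near that of all genes. The libraries of spleen and marrow did not overlap for 8 of the 10 members, against 67.8% of all genes tested. The median log2 FC was 0.30 over the members and 0.030 over all genes tested.

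*Tlr9* (ENSMUSG00000045322, chromosome 9 of GRCm38 from 106222598 to 106226883, plus strand) was at 12.1 and 10.5 CPM in the SP Gr-1hi libraries and at 1.46 and 2.39 in the BM Gr-1hi libraries. Its levels in spleen were all above those in marrow, where 39 and 58 reads lay behind the values. The log2 FC was 2.56 (SE 0.24, adjusted p = 0.000332, n = 2 libraries per group, edgeR's quasi-likelihood test). It was called under every alternative run for this comparison, with a log2 FC between 2.12 and 2.85. All 10 B cell genes were also called higher in SP Gr-1hi than in BM Gr-1hi, and among them *Cd22* was at 103 and 74.4 CPM in spleen and at 2.84 and 1.61 in marrow. Their part in the *Tlr9* difference was not tested. The summed level of 7 monocyte genes was 439 and 318 CPM in SP Gr-1hi and 195 and 241 in BM Gr-1hi, with 2 of the 7 called higher. Much of the sum was *Csf1r*, at 375 and 264 CPM against 175 and 133. *Fn1*, *F13a1* and *Ccr2* went the other way without being called (log2 FC -3.49, -2.76 and -0.39). The part of monocytes was likewise not tested. Plasmacytoid dendritic cells are also rich in *Tlr9*, and of 8 genes listed for them, *Ly6d* and *Spib* were called higher in SP Gr-1hi (log2 FC 3.19 and 3.32) and *Siglech* lower (log2 FC -1.59, at no more than 1.32 CPM in any library). The part of these cells was not tested.

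*Tlr1* (ENSMUSG00000044827, chromosome 5 from 64924679 to 64933563, minus strand) was at 164 and 60.1 CPM in SP Gr-1hi and at 23.2 and 36.1 in BM Gr-1hi. The groups did not overlap, but the 2 splenic libraries were farther apart than the marrow libraries were from the lower of them. The log2 FC was 1.92 (SE 0.46, adjusted p = 0.0211), and without library 5, the higher one, it was 0.94 (adjusted p = 0.0216), under 2-fold. The call was also lost without library 9 (adjusted p = 0.109), without library 11 (a p just above the threshold, log2 FC 1.92), with no low-count filter (0.119) and in a fit of the 4 libraries compared (0.0502), all by the same test. Without libraries 5 and 7 it was called at a log2 FC of 1.04 (adjusted p = 0.0374). Of the 2 splenic libraries, library 5 also had the higher sums of B cell, T cell, plasma cell and monocyte genes and the lower sum of neutrophil genes. It was also the one with *Xist* and without *Ddx3y*. The part of these differences in the *Tlr1* value was not tested.

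Smaller differences passed the test at less than 2-fold. At any fold, 5 members passed as higher in splenic Gr-1hi cells and 2 as lower, against 20.1% and 13.9% of all genes tested and 34.0% in either direction. *Myd88* (chromosome 9 from 119335934 to 119341411, minus strand) was at 491 and 370 CPM in spleen and at 257 and 260 in marrow (log2 FC 0.74, SE 0.13, adjusted p = 0.00356). *Tlr6*, the partner of TLR2 for diacylated lipopeptides, was at 128 and 96.1 CPM in spleen and at 75.6 and 65.4 in marrow (log2 FC 0.67, SE 0.15, adjusted p = 0.00952). Both genes had their lowest splenic library above the highest marrow library. *Tlr4*, the receptor for lipopolysaccharide, rose by a log2 FC of 0.37 (SE 0.12, adjusted p = 0.0486), from 110 CPM in each marrow library to 158 and 126 in spleen. *Tlr2* went the other way, from 253 and 243 CPM in marrow to 203 and 188 in spleen (log2 FC -0.34, SE 0.11, adjusted p = 0.0409). *Tlr8* fell from 81.6 and 55.5 CPM to 38.2 and 51.3 (log2 FC -0.62, SE 0.21, adjusted p = 0.0499). Without libraries 5 and 7, *Tlr2*, *Tlr4* and *Tlr8* no longer passed (adjusted p = 0.0510, 0.259 and 0.369 by the same test).

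The other members were close in both tissues. *Tlr13* was at 461 and 469 CPM in SP Gr-1hi and at 468 and 425 in BM Gr-1hi, which overlap, with a 95% interval of the log2 FC from -0.13 to 0.25. *Tlr7* was at 22.1 and 38.2 CPM against 31.0 and 24.7, with an interval from -0.49 to 0.72. *Unc93b1* was at 478 and 421 CPM against 367 and 395, and its log2 FC of 0.24 (SE 0.11) had an adjusted p of 0.133.

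**Figure D1:**
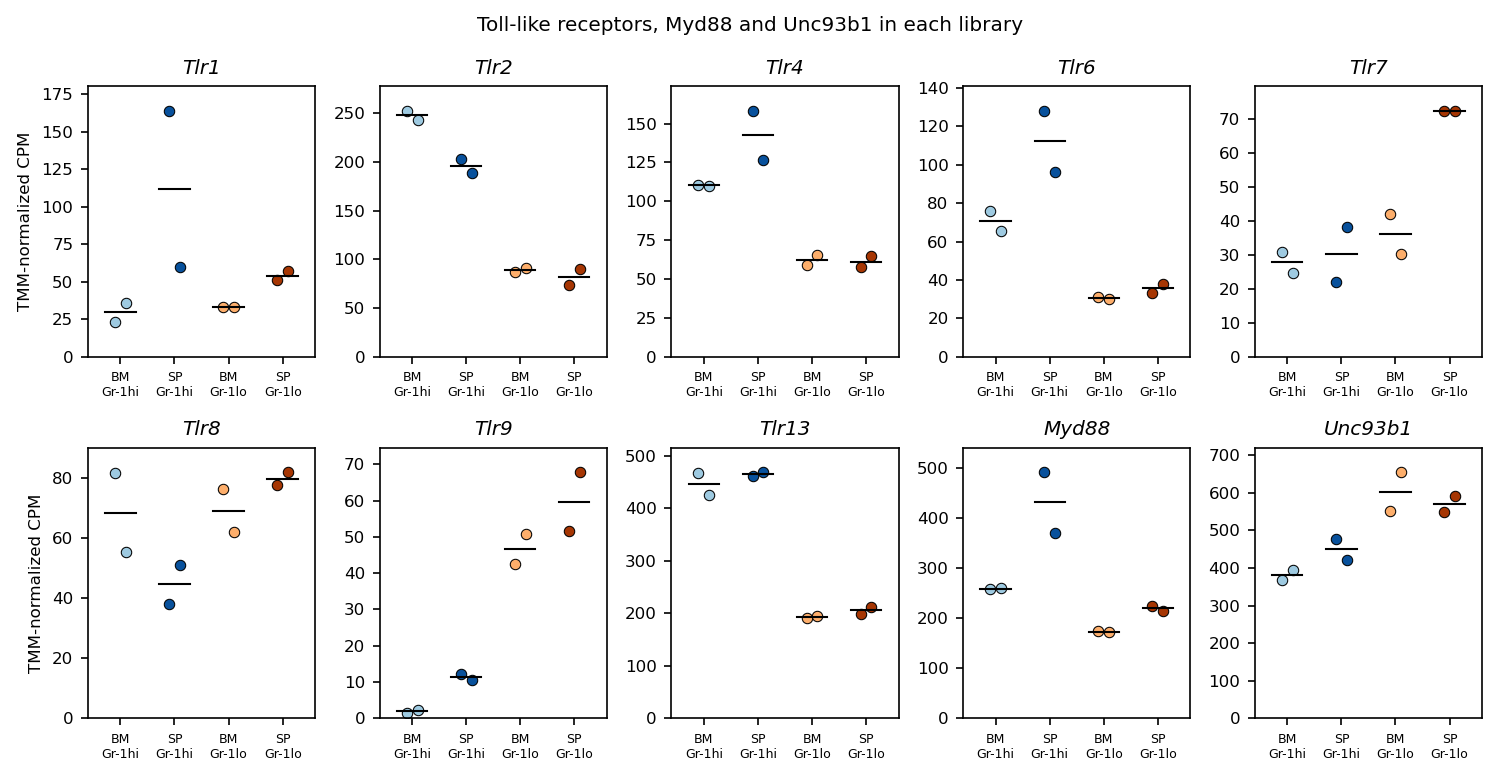
Each panel plots 1 of the 10 genes, with TMM-normalized CPM on the vertical axis from 0, the 4 groups on the horizontal axis, 1 point per library and a line at the mean of the 2 libraries. *Tlr9* lies at 1.46 and 2.39 CPM in BM Gr-1hi and at 42.6 CPM or more in all Gr-1lo libraries, *Tlr1* has its highest point in a SP Gr-1hi library at 164 CPM, and *Tlr7* is highest in SP Gr-1lo at 72.3 and 72.5 CPM.

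In Gr-1lo cells, the comparison of spleen with marrow called none of the 10 members, against 4.06% of all genes tested. The libraries of the 2 tissues did not overlap for 7 members, against 59.7% of all genes. By edgeR's quasi-likelihood test 2 of the 10 members had an unadjusted p under 0.05, against 3545 of the 17650 genes tested. DESeq2 called 0 members, and edgeR's exact test on quantile-normalized TPM (counts per gene length, scaled to the same sum in each library) called 1. That gene was *Tlr7* (ENSMUSG00000044583, chromosome X from 167304929 to 167330558, minus strand), at 72.3 and 72.5 CPM in SP Gr-1lo and at 42.0 and 30.4 in BM Gr-1lo. Both splenic libraries lay above both marrow libraries. The difference was 2-fold, with a 95% interval of the log2 FC from 0.41 to 1.59 (SE 0.26, adjusted p = 0.0694). *Tlr7* was called in 5 of 16 alternatives, with a log2 FC between 0.79 and 1.25, and its adjusted p ranged from 1.63e-06 to 0.410. Without libraries 5 and 7 the log2 FC was 0.99 (adjusted p = 0.0607), and the part of the *Xist* difference between the libraries was not tested.

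*Myd88* was the other member with an unadjusted p under 0.05. It was at 225 and 214 CPM in SP Gr-1lo and at 174 and 171 in BM Gr-1lo (log2 FC 0.35, SE 0.12, adjusted p = 0.171). *Tlr9* was at 51.6 and 67.9 CPM in spleen and at 42.6 and 50.9 in marrow, with an interval of the log2 FC from -0.072 to 0.78. *Tlr1* was at 51.0 and 57.1 CPM against 32.9 and 33.4, without overlap, but with an interval from -0.37 to 1.78 it could not be told from 0. *Tlr13*, at 199 and 211 CPM against 192 and 194, had the narrowest interval, from -0.10 to 0.28, so a 2-fold difference lies outside it. *Tlr2* was at 74.0 and 90.6 CPM against 86.9 and 90.9, *Tlr4* at 57.6 and 64.9 against 58.8 and 65.7, *Tlr6* at 33.3 and 38.1 against 31.0 and 30.3, *Tlr8* at 77.6 and 82.1 against 76.4 and 62.1, and *Unc93b1* at 549 and 590 against 551 and 655. The intervals of these 5 genes ran from -0.36 to 0.67 at their widest ends.

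Between the subsets, *Tlr2*, *Tlr4*, *Tlr6* and *Tlr13* were higher in Gr-1hi cells and *Tlr9* was lower, in both tissues. In marrow, 3 members were called higher in Gr-1hi and 1 lower, against 24.2% and 33.1% of all genes tested. In spleen, 4 members were called higher and 2 lower, against 22.3% and 27.4%. At any fold, 5 members passed as higher and 2 as lower in marrow, against 34.5% and 41.2% of all genes, and 5 as higher and 4 as lower in spleen, against 33.6% and 37.8%. In either direction, 7 members passed in marrow and 9 in spleen, against 75.7% and 71.4%. The libraries of the subsets did not overlap for 7 members in marrow and for all 10 in spleen, against 88.9% and 86.2% of all genes. The 2 comparisons use different libraries. The scale matters here, since the TMM factors lay between 0.724 and 0.863 for Gr-1hi libraries and between 1.26 and 1.30 for Gr-1lo libraries. On total counts alone, an alternative added after the data had been seen, the median log2 FC of all genes moved from -0.18 to -0.99 in marrow and from -0.088 to -0.69 in spleen. The share of calls that were higher moved from 42.3% to 21.8% in marrow and from 44.8% to 24.9% in spleen.

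*Tlr9* showed the largest difference of the 10 members. It was at 1.46 and 2.39 CPM in BM Gr-1hi and at 42.6 and 50.9 in BM Gr-1lo (log2 FC -4.61, SE 0.24, adjusted p = 6.4e-07), or 24.4-fold. In spleen it was at 12.1 and 10.5 CPM in Gr-1hi and at 51.6 and 67.9 in Gr-1lo (log2 FC -2.40, SE 0.20, adjusted p = 1.19e-05), or 5.28-fold. No Gr-1hi library reached the lowest Gr-1lo library in either tissue. In marrow *Tlr9* was the one member past the stricter rule of more than 8-fold and an adjusted p under 0.01, which 16.7% of all genes passed, and in spleen no member was, against 7.37% of all genes. All 7 monocyte genes were called lower in Gr-1hi in both tissues, and their summed level was 195 and 241 CPM in BM Gr-1hi against 8590 and 7001 in BM Gr-1lo. Of the 2 BM Gr-1hi libraries, library 10 had the higher *Tlr9* and also the higher *Fn1*, a monocyte gene, at 31.2 CPM against 1.12 in library 9. *Csf1r*, of the same list and at a higher level, went the other way, at 133 CPM in library 10 against 175 in library 9. The part of monocytes in the Gr-1hi values was not tested.

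*Tlr2* (ENSMUSG00000027995, chromosome 3 from 83836272 to 83841767, minus strand) was at 253 and 243 CPM in BM Gr-1hi and at 86.9 and 90.9 in BM Gr-1lo (log2 FC 1.48, SE 0.11, adjusted p = 3.32e-06). In spleen it was at 203 and 188 against 74.0 and 90.6 (log2 FC 1.25, SE 0.11, adjusted p = 1.33e-05). *Tlr6* was at 75.6 and 65.4 CPM against 31.0 and 30.3 in marrow (log2 FC 1.20) and at 128 and 96.1 against 33.3 and 38.1 in spleen (log2 FC 1.65). *Tlr4* was at 110 CPM in each BM Gr-1hi library against 58.8 and 65.7 in BM Gr-1lo (log2 FC 0.83, adjusted p = 0.00029), under 2-fold, and at 158 and 126 against 57.6 and 64.9 in spleen (log2 FC 1.22, adjusted p = 3.39e-05). Without libraries 5 and 7 the splenic value of *Tlr4* was 0.94 (adjusted p = 0.000495), under 2-fold. *Tlr2*, *Tlr4* and *Tlr6* had no overlap between the subsets in either tissue. On total counts alone their log2 FCs stayed above 0 but only *Tlr6* in spleen, at 1.06, was still called, and *Tlr4* in marrow was at 0.015. On quantile-normalized TPM, *Tlr2* in spleen was at 0.92 and not called.

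In marrow *Tlr1* was not higher in Gr-1hi as the other surface receptors were, while in spleen its log2 FC was above 0 like theirs. In marrow it was at 23.2 and 36.1 CPM in Gr-1hi and at 32.9 and 33.4 in Gr-1lo, which overlap, with an interval of the log2 FC from -1.25 to 0.93. In spleen it was at 164 and 60.1 CPM against 51.0 and 57.1 (log2 FC 1.05, SE 0.44, adjusted p = 0.0718), which was not called. Without library 5 this value was 0.13 and without library 6 it was 1.58 and called (adjusted p = 0.000446), so it rests on library 5. DESeq2 called it, with a log2 FC of 1.19 (adjusted p = 0.00336).

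Among the endosomal receptors, *Tlr13* (ENSMUSG00000033777, chromosome X from 106143204 to 106160493, plus strand) was higher in Gr-1hi. It was at 468 and 425 CPM against 192 and 194 in marrow (log2 FC 1.21, SE 0.085, adjusted p = 2.38e-06) and at 461 and 469 against 199 and 211 in spleen (log2 FC 1.18, SE 0.085, adjusted p = 4.87e-06). The groups were far apart in both tissues on this scale, while on total counts alone the log2 FCs were 0.40 and 0.58, and on quantile-normalized TPM 0.76 and 0.81, under 2-fold in each case. *Tlr7* was at 22.1 and 38.2 CPM in SP Gr-1hi against 72.3 and 72.5 in SP Gr-1lo (log2 FC -1.27, SE 0.26, adjusted p = 0.00256), and at 31.0 and 24.7 against 42.0 and 30.4 in marrow, which overlap (log2 FC -0.38, adjusted p = 0.214). The splenic value fell short of 2-fold without library 5 (-0.95, adjusted p = 0.00664) and without libraries 5 and 7 (-0.95, adjusted p = 0.0192). *Tlr8* was lower in SP Gr-1hi, at 38.2 and 51.3 CPM against 77.6 and 82.1 (log2 FC -0.84, SE 0.20, adjusted p = 0.00612, and 0.0928 without libraries 5 and 7). In marrow it was at 81.6 and 55.5 CPM against 76.4 and 62.1, which overlap, with an interval from -0.48 to 0.45. On total counts alone, *Tlr7* in marrow (log2 FC -1.19, adjusted p = 0.0025) and *Tlr8* in spleen (log2 FC -1.44, adjusted p = 0.000262) were called, and the latter also without library 6 (log2 FC -1.09, adjusted p = 0.00867).

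*Myd88* and *Unc93b1* differed between the subsets by less than 2-fold and in opposite directions on the TMM scale. *Myd88* was higher in Gr-1hi, at 257 and 260 CPM against 174 and 171 in marrow (log2 FC 0.58, adjusted p = 0.00253) and at 491 and 370 against 225 and 214 in spleen (log2 FC 0.97, adjusted p = 0.00014), but on total counts alone its log2 FC in marrow was -0.23. With RLE and upper-quartile scaling and in DESeq2 the splenic value was just over 2-fold, with log2 FCs of 1.11, 1.06 and 1.11, as it was without library 6 (1.14). *Unc93b1* (chromosome 19 from 3935186 to 3949340, plus strand) was lower in Gr-1hi, at 367 and 395 CPM against 551 and 655 in marrow (log2 FC -0.66, adjusted p = 0.000638) and at 478 and 421 against 549 and 590 in spleen (log2 FC -0.34, adjusted p = 0.0230). In marrow *Unc93b1* was called on total counts alone (log2 FC -1.47, adjusted p = 5.07e-06) and by edgeR's exact test on quantile-normalized TPM (-1.15, adjusted p = 7.92e-18). No library of one subset reached the other subset in either tissue for these 2 genes. *Myd88* shares 290 exon bases with *Acaa1a* on the opposite strand, the library kit keeps the strand, and the submitters name the count table as stranded without giving the setting.

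Whether the difference between the subsets depended on the tissue was tested as an interaction, the log2 FC of Gr-1hi against Gr-1lo in spleen minus that in marrow. *Tlr9* was the 1 member called, at 2.21 (SE 0.31, adjusted p = 0.00477, edgeR's quasi-likelihood test), against 7.74% of all genes called in that direction, 2.00% in the other and 9.74% in either. The difference between the subsets was thus 4.62-fold smaller in spleen, and the value stayed between 1.80 and 2.48 over 14 alternatives, called in each. Over all genes, the share of calls above 0 was 79.5%, and 90.1% on total counts alone. For *Tlr7* and *Tlr8* the interaction was -0.89 (SE 0.36, adjusted p = 0.136) and -0.82 (SE 0.29, adjusted p = 0.0896), so neither passed. The interval of *Tlr7* ran from -1.73 to -0.046 and that of *Tlr8* from -1.49 to -0.16. Without library 6 the interaction was 1.67 for *Tlr1*, -1.43 for *Tlr7* and -1.14 for *Tlr8*, and without library 10 that of *Tlr8* was -1.19. For *Tlr13* the interval was from -0.30 to 0.24, the narrowest of the 10.

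To compare levels between genes, CPM were divided by the exon length of each gene in kilobases (RPKM). The shares and ratios between genes depend on the length used. With the length of the longest transcript, mean RPKM rose from 25.6 to 34.9 for *Tlr4* in SP Gr-1hi and from 199 to 266 for *Unc93b1* in BM Gr-1lo. *Tlr13* stayed the highest of the 8 receptors in every library with that length. *Tlr13* had the highest RPKM of the 8 receptors in every library. It made up 38.1% ± 4.35 (SD, n = 2) of their summed RPKM in SP Gr-1hi, 39.9% ± 0.443 in BM Gr-1hi, 28.3% ± 1.06 in SP Gr-1lo and 30.8% ± 0.465 in BM Gr-1lo. *Tlr2* was next in each group, with 22.8% ± 1.11, 31.6% ± 0.888, 16.1% ± 1.04 and 20.3% ± 0.793 in the same order. *Tlr9* made up 1.14% of the sum in SP Gr-1hi and 0.215% in BM Gr-1hi, the lowest share of the 8 in both, against 10.1% in SP Gr-1lo and 9.26% in BM Gr-1lo. The summed RPKM of the 8 receptors was 306 and 265 in SP Gr-1hi, 270 and 250 in BM Gr-1hi, 160 and 178 in SP Gr-1lo, and 146 and 145 in BM Gr-1lo. The Gr-1hi groups overlapped in this sum and lay above both Gr-1lo groups, and no test was made of these sums and shares.

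Ratios within a library do not depend on the scaling between libraries. The RPKM of *Tlr9* relative to *Tlr13*, the DNA sensor against the most abundant RNA sensor, was 0.0325 and 0.0277 in SP Gr-1hi, 0.00386 and 0.00697 in BM Gr-1hi, 0.320 and 0.398 in SP Gr-1lo, and 0.275 and 0.325 in BM Gr-1lo. The ratio was thus lower in every Gr-1hi library than in every Gr-1lo library. The RPKM of *Tlr8* relative to *Tlr7*, 2 neighbours on the X chromosome that lie 40599 bases apart, was 1.22 and 1.29 in SP Gr-1lo and 2.07 and 2.33 in BM Gr-1lo. It was 1.97 and 1.53 in SP Gr-1hi and 2.78 ± 0.312 (SD, n = 2) in BM Gr-1hi, and the splenic libraries lay below the marrow libraries in each subset. *Tlr1* and *Tlr6*, neighbours on chromosome 5 with 18467 bases between them, had a ratio of 1.43 and 0.697 in SP Gr-1hi, 0.342 and 0.615 in BM Gr-1hi, 1.71 and 1.67 in SP Gr-1lo, and 1.18 and 1.23 in BM Gr-1lo. For this ratio the splenic libraries lay above the marrow libraries in each subset. The longest transcripts of *Tlr1* and *Tlr6* share 454 windows of 50 identical bases, 15.3% of those of *Tlr1* and 12.5% of those of *Tlr6*, which leaves it uncertain how reads were divided between the 2 genes, and no other pair of the 45 shares one. *Unc93b1* relative to the summed RPKM of the 4 endosomal receptors was 1.80 and 1.78 in SP Gr-1lo and 2.06 and 2.56 in BM Gr-1lo, and 1.24 and 1.03 in SP Gr-1hi and 0.868 and 1.08 in BM Gr-1hi, where the tissues overlap.

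**Figure D2:**
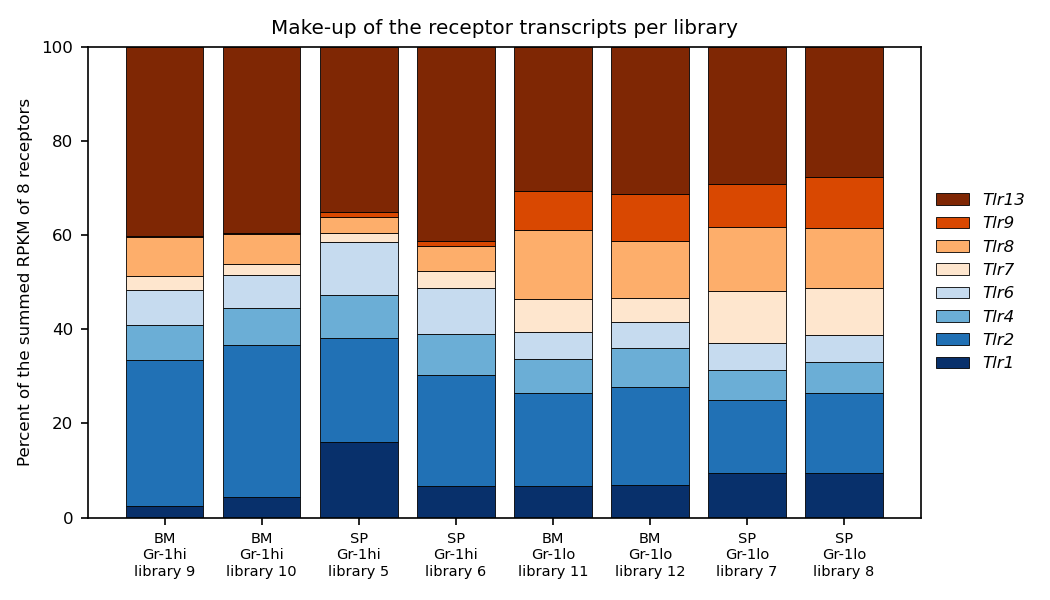
Each bar is 1 library and shows the percent of the summed RPKM of the 8 receptors that each receptor made up, with endosomal receptors in orange and surface receptors in blue. *Tlr13* is the largest part of every bar, *Tlr2* is largest in BM Gr-1hi at 31.0% and 32.3%, and *Tlr9* is hardly visible in the Gr-1hi bars, where it is at most 1.14%.

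The genes whose pattern was most like that of each member were sought among genes with a mean of at least 10 CPM, by Pearson's correlation of log2(CPM + 1) over the 8 libraries. Because the libraries fall into 4 groups of 2, the 8 points are not independent, and the values are a description. *Cd180*, which encodes a relative of TLR4 on B cells and myeloid cells, was the gene nearest to *Tlr9* (r = 0.998), followed by *Tor3a* (0.998). *Tlr7* was nearest to *Asxl2* (0.956) and to *Fcgr2b* (0.931), the inhibitory Fc receptor. *Tlr2* was nearest to *Abhd18* (0.997) and *Wasf2* (0.996), *Tlr4* to *Tctn1* and *Slc2a1* (0.993 each), *Tlr6* to *Rabgap1* (0.998) and *Med12l* (0.997), and *Tlr13* to *Gm39321* and *Sf3b1* (0.999 each). *Tlr1* was nearest to *Sertad2* (0.956) and *Shisa5* (0.951) and *Tlr8* to *Stx16* (0.966) and *Rfxank* (0.945), so these receptors and *Tlr7* had less close neighbours than the other members. *Myd88* was nearest to *Il13ra1* (0.995) and *Jak3* (0.994), and *Unc93b1* to *Smad1* (0.992) and *Tmco4* (0.988). Among the members themselves the closest pair was *Tlr4* and *Tlr6* (0.985), followed by *Tlr2* and *Tlr13* (0.968).

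The rest of the pathway was read from a list of 59 further genes, of which 58 could be tested. In Gr-1hi cells of the spleen against those of the marrow, 13 were called higher and 1 lower, against 14.0% and 1.48% of all genes. Of the 6 co-receptors and ligand carriers 3 were called higher. *Cd180* was at 27.3 and 18.6 CPM in SP Gr-1hi and at 3.40 and 5.70 in BM Gr-1hi (log2 FC 2.34, SE 0.30, adjusted p = 0.00126), without overlap. *Ly86*, which encodes the partner MD-1 of CD180, was higher by 2.22 on the log2 scale (SE 0.42, adjusted p = 0.00876), and *Cd36*, a scavenger receptor that hands ligands to TLR2, one of 2.83 (SE 0.45, adjusted p = 0.00292). The call of *Ly86* was lost with no low-count filter (adjusted p = 0.0647), without library 5 (0.0741) or without libraries 5 and 7 (0.153). *Scimp*, an adaptor that antigen-presenting cells use beside their receptors, had the largest change of the 4 named genes, from 1.91 and 2.39 CPM to 30.5 and 14.9 (log2 FC 3.40, SE 0.37, adjusted p = 0.000497). *Cd180* is abundant in B cells, the 10 B cell genes were all higher in the same libraries, and their part in these values was not tested.

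The 4 receptors of the family outside the 10 members, picked after their values had been seen, were low except for *Tlr5*, the receptor for flagellin. It was at 22.6 and 28.5 CPM in SP Gr-1hi and at 62.8 and 48.4 in BM Gr-1hi, the 1 gene of the list called lower in spleen (log2 FC -1.12, SE 0.20, adjusted p = 0.00463). In Gr-1lo libraries *Tlr5* lay between 4.40 and 6.20 CPM, so it was the family member with the largest preference for Gr-1hi in marrow (log2 FC 3.42, SE 0.22). *Tlr3*, *Tlr11* and *Tlr12* were called higher in SP Gr-1hi, but at 3.25 CPM or less there and at 0.330 or less in BM Gr-1hi. The remaining calls were 2 of 5 nucleases, 2 of 9 inhibitors, 1 of 7 chaperones and transporters, 1 of 5 other adaptors and 1 of 17 kinases and ubiquitin ligases, all higher in spleen, and 0 of 5 transcription factors.

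In Gr-1lo cells, 4 of the 58 genes were called higher in spleen and 0 lower, against 3.84% and 0.215% of all genes. *Pik3ap1*, an adaptor that links the receptors to PI3 kinase and restrains their signal, was at 131 and 148 CPM in SP Gr-1lo and at 66.9 and 59.7 in BM Gr-1lo (log2 FC 1.14, SE 0.10, adjusted p = 0.000485), without overlap. *Tnfaip3*, which encodes the inhibitor A20, was at 36.4 and 57.7 CPM against 19.3 and 23.5 (log2 FC 1.14, SE 0.20, adjusted p = 0.0141). It fell below 2-fold without library 8 (log2 FC 0.77) and was not called without library 11 (adjusted p = 0.108) or 12 (0.0540), in a fit of the 4 libraries (0.0647) or on quantile-normalized TPM (0.291, exact test). In the same comparison 9 of 10 B cell genes, 8 of 8 T cell genes, 4 of 5 plasma cell genes and 6 of 8 splenic macrophage genes were called higher in SP Gr-1lo and none lower. Their part in these values and in that of *Tlr7* was not tested.

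**Figure D3:**
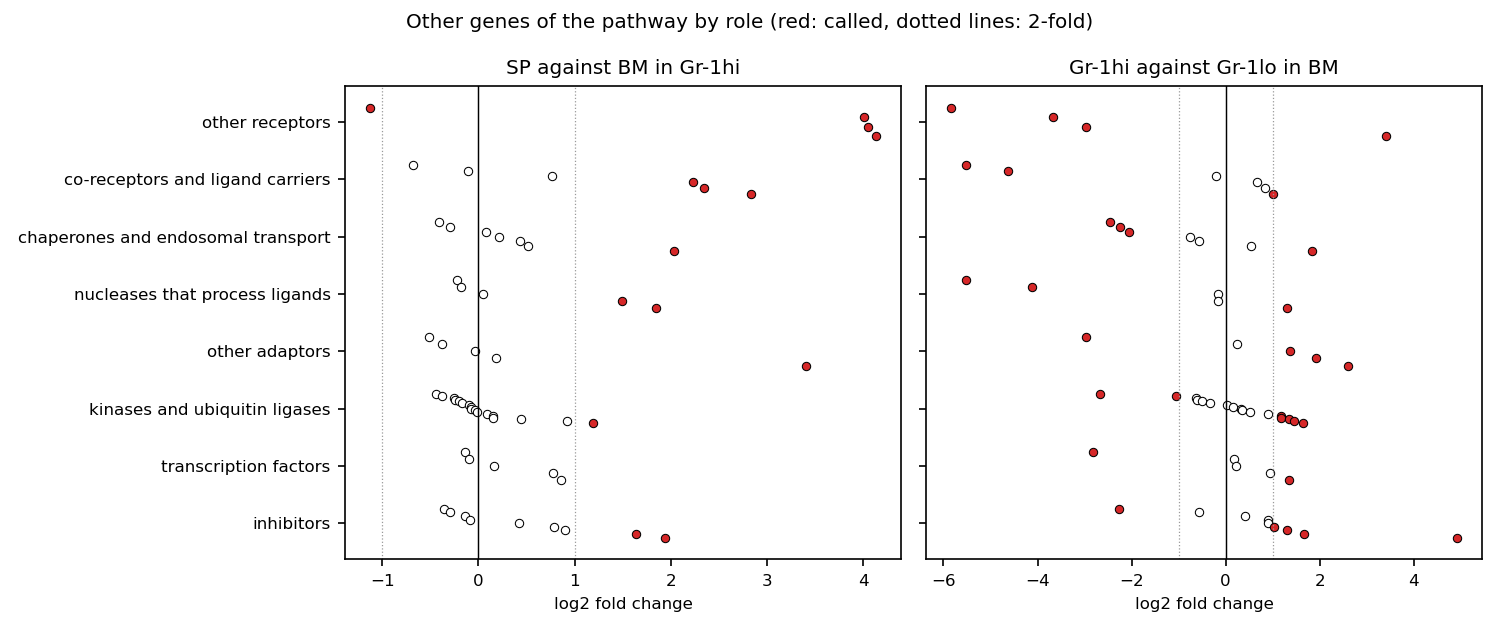
Each point is the log2 FC of 1 of 58 further genes of the pathway, arranged by role, for SP against BM in Gr-1hi cells on the left and Gr-1hi against Gr-1lo in BM on the right, with called genes in red and dotted lines at 2-fold. On the left, 13 red points lie above 0 and 1 below, and on the right 17 lie above 0 and 15 below.

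Between the subsets, 17 of the 58 genes were called higher in Gr-1hi and 15 lower in marrow, and 12 higher and 12 lower in spleen, against 57.3% and 49.6% of all genes in either direction. The named genes with the largest differences in marrow were lower in Gr-1hi, and 2 of the 4 encode nucleases. *Pld4*, an exonuclease of endosomes that degrades single-stranded ligands of TLR9, was at 7.55 and 18.7 CPM in BM Gr-1hi and at 581 and 622 in BM Gr-1lo (log2 FC -5.53, SE 0.43, adjusted p = 2.23e-05). In spleen it was at 53.1 and 41.0 CPM against 536 and 608 (log2 FC -3.60, SE 0.39, adjusted p = 0.000156). *Dnase2a*, the acid DNase of lysosomes, was at 2.62 and 2.23 CPM in BM Gr-1hi against 42.2 and 41.9 in BM Gr-1lo (log2 FC -4.11, SE 0.13, adjusted p = 8.9e-08). No Gr-1hi library came near the Gr-1lo libraries for either nuclease. Of the other 3 nucleases of the list, named after their values had been seen, *Pld3* was called higher in BM Gr-1hi (log2 FC 1.30, adjusted p = 4.23e-05), and *Rnaset2a* and *Rnaset2b* did not pass (log2 FC -0.17 each). *Ly86* and *Cd180* had log2 FCs of -5.53 (SE 0.45) and -4.63 (SE 0.31) in marrow. In spleen, *Ticam2*, the adaptor TRAM that TLR4 uses in endosomes, was lower in Gr-1hi (log2 FC -3.04, SE 0.13, adjusted p = 5.51e-07), *Ly86* one of -3.38 (SE 0.39) and *Scimp* one of 2.71 (SE 0.33).

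The interaction of tissue and subset was called for 7 further genes above 0 and 2 below, against 7.74% and 2.00% of all genes. The named ones were *Cd180* at 2.18 (SE 0.39, adjusted p = 0.0116), *Ly86* at 2.14 (SE 0.55, adjusted p = 0.0433), *Pld4* at 1.92 (SE 0.51, adjusted p = 0.0486) and *Dnase2a* at 1.78 (SE 0.16, adjusted p = 0.00162), by the test used for *Tlr9*. All 4 lay above 0, as did *Tlr9* at 2.21. *Ly86* and *Pld4* were not called with no low-count filter (0.205 and 0.215), nor without library 5 (0.162 and 0.188), 6 (0.0905 and 0.0981), 7 (0.145 and 0.160), 8 (0.105 and 0.142), 11 (0.0972 and 0.120) or 12 (0.136 and 0.143). Without libraries 5 and 7, *Cd180* (adjusted p = 0.100), *Ly86* (0.354) and *Pld4* (0.396) were not called, while *Tlr9* was (1.95, adjusted p = 0.0214).

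**Figure D4:**
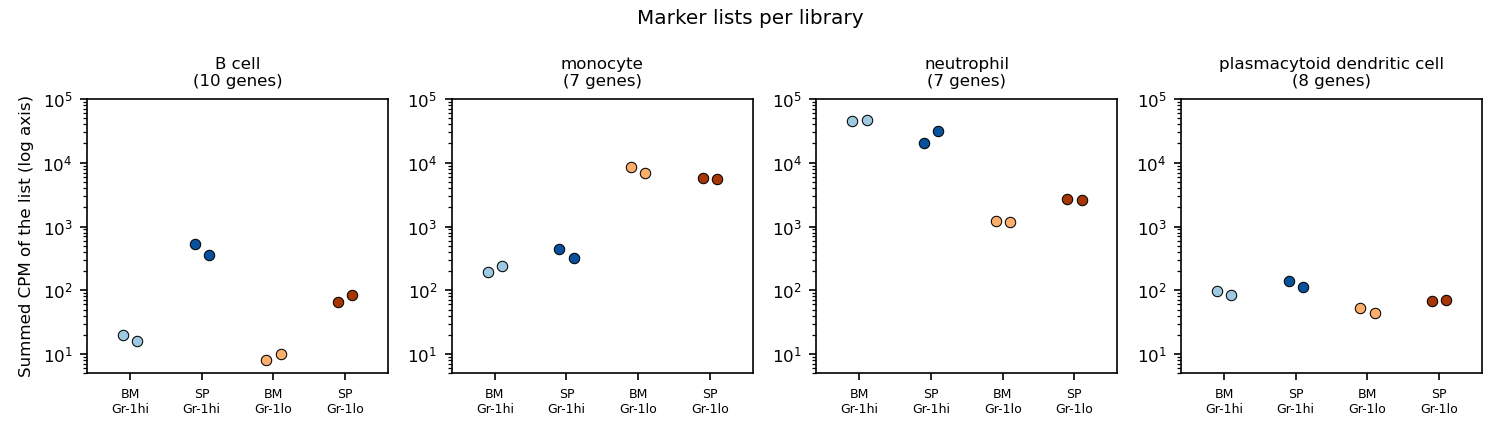
Points give, on a log axis, the summed CPM of 4 lists of cell type genes in each library, by group. The B cell sum is 360 and 537 CPM in SP Gr-1hi against 16.3 and 19.9 in BM Gr-1hi, the monocyte sum is highest in Gr-1lo and the neutrophil sum in Gr-1hi libraries.

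Genes of other cells moved with the spleen too. The neutrophil sum of 7 genes was 20070 and 31432 CPM in SP Gr-1hi and 44773 and 46692 in BM Gr-1hi, and 2717 or less in Gr-1lo libraries. The summed level of 5 plasma cell genes was 125 and 67.8 CPM in SP Gr-1hi against 8.64 and 7.14 in BM Gr-1hi, and that of 8 T cell genes was 106 and 64.3 against 9.79 and 6.44. Of the lists for plasma cells, T cells, NK cells, conventional dendritic cells and splenic macrophages, 4 of 5, 7 of 8, 4 of 5, 3 of 6 and 5 of 8 genes were called higher in SP Gr-1hi than in BM Gr-1hi. Of all genes tested, 14.0% were called higher and 1.48% lower in this comparison. The list of 8 genes for plasmacytoid dendritic cells had a sum of 138 and 113 CPM in SP Gr-1hi against 99.2 and 83.5 in BM Gr-1hi, which rested on *Runx2*, *Tcf4* and *Spib*, which other cells also express. The part of these cells in the values of the receptors was not tested.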

How the data were processed

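RNA from sorted CD11b+ cells was prepared with a stranded mRNA kit and sequenced as paired reads. According to the methods of the study and the submitters' processing notes, the authors checked reads with FastQC 0.11.8, filtered them with Sickle 1.33, aligned them to GRCm38.p6 with STAR 2.5.3a and counted them over the genes of GENCODE M24 in featureCounts (Subread 1.6.4). The deposited table holds whole-number counts without normalization for 54188 genes and 8 libraries, with 33453580 to 68316154 counts each, so counting error is small except where a gene has few reads.

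From these counts, genes were filtered with filterByExpr of edgeR 4.0.16 in R 4.3.3, which left 17650, scaled by TMM and fitted in 1 robust quasi-likelihood model with 4 groups of 2 libraries and 4 residual degrees of freedom. Groups came from the labels. Adjustment for multiple tests followed Benjamini and Hochberg over all genes tested, and a gene was called where its adjusted p was 0.05 or less and the change 2-fold or more. The SE is the absolute log2 FC over the root of F. The study names the replicates as independent, but the labels name no mouse, so p-values measure the spread between these libraries. Within each group the 2 libraries differed beyond counting error (chi-square per degree of freedom 66.7, 21.0, 21.3 and 18.9). The model was checked on simulated data.

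RPKM used exon lengths of GENCODE M21, also on GRCm38, which holds 53947 of the gene identifiers. The length of the longest transcript of each gene was the alternative for RPKM. Coordinates of genes are from M21, promoters from RefSeq.

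Alternatives were RLE scaling, upper-quartile scaling, total counts only, no filter, a rule of more than 8-fold with an adjusted p under 0.01, DESeq2 1.42.0, edgeR's exact test on quantile-normalized TPM, a fit of the 4 libraries compared, leaving out each library, and leaving out libraries 5 and 7. All 10 members are named, and of the other pathway genes the called ones whose higher group had a mean of 10 CPM or more, up to 4 per comparison by size of the log2 FC. For each member the 2 genes of most similar pattern are named, as are the leading genes of marker lists. The members, the pathway list, the marker lists and these rules were chosen with earlier results of these data known.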

Additional observations from a re-analysis of the deposited data

Results flagged for a closer look

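The difference between Gr-1hi and Gr-1lo cells in *Tlr9* was not the same in the 2 tissues. On the log2 scale, Gr-1hi minus Gr-1lo was -2.40 in spleen and -4.61 in marrow, and the difference between these values was 2.21 (SE 0.31, adjusted p = 0.00477, edgeR's quasi-likelihood test of the interaction with Benjamini-Hochberg adjustment). It lay above 0 in all 14 alternatives, between 1.80 and 2.48. In BM Gr-1hi libraries the values rest on 39 and 58 reads of *Tlr9*, and without library 9 or library 10 the interaction was 1.80 or 2.48. The B cell genes, whose sum was 537 and 360 CPM in SP Gr-1hi and 19.9 and 16.3 CPM in BM Gr-1hi, moved with it, and their part was not tested.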

How the results depend on the processing

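Of 800 alternative values of the 10 members, 725 kept their direction and their side of the threshold, 26 were no longer called, 20 became called and 29 changed sign. Of 288 alternative values of the named pathway genes, 262 kept both and 26 were no longer called. None of the members that were called changed sign. The changes of sign were of members near 0 or under 2-fold, as log2 FC. For *Tlr13* in SP against BM Gr-1hi they were -0.017 with RLE scaling and with DESeq2, and without 1 library in turn the values ran from -0.11 to 0.061. For *Tlr7* in that comparison they ran from -0.41 to 0.37 without 1 library. In SP against BM Gr-1lo, *Tlr4* was 0.015 with upper-quartile scaling, 0.025 without the filter, 0.0040 in a fit of the 4 libraries and 0.050 without libraries 5 and 7, and -0.11 to 0.066 without 1 library. *Tlr2* there was 0.016 without libraries 5 and 7 and -0.26 to 0.032 without 1 library, and *Unc93b1* -0.20 to 0.052. In BM Gr-1hi against Gr-1lo, *Tlr8* was 0.14 with RLE scaling and with DESeq2, 0.027 with upper-quartile scaling, 0.049 in a fit of the 4 libraries, and -0.27 to 0.32 without 1 library. *Tlr1* there was -0.43 to 0.18 without 1 library, and *Myd88* -0.23 on total counts alone. The interaction of *Tlr13* was 0.0075 with upper-quartile scaling, 0.18 on total counts and -0.22 to 0.0097 without 1 library. The cause of these changes was not tested.

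Counts of called genes moved by more than 1.5 times as follows. In SP against BM Gr-1lo, without the filter 1 member and 1077 genes were called, on quantile-normalized TPM 1 member, 1 pathway gene and 272 genes, and in a fit of the 4 libraries 1 member, where the main counts were 0, 4 and 716. In SP against BM Gr-1hi, 1 member was called without the filter and 1 in a fit of the 4 libraries, against 2. For pathway genes and all genes, the counts there were 7 and 688 on quantile-normalized values and 8 and 1617 without libraries 5 and 7, against 14 and 2727. Between the subsets, the rule of more than 8-fold left 1 member, 8 pathway genes and 2946 genes in BM and 0, 3 and 1301 in SP, and quantile-normalized values gave 5679 and 4599 genes, against 10109 and 8761. Without libraries 5 and 7 the interaction was called for 4 pathway genes and 819 genes, against 9 and 1719.

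Without 1 library in turn, the members called were 0 to 1 in SP against BM Gr-1lo, 1 to 2 in Gr-1hi, 4 to 4 and 5 to 9 between the subsets of BM and SP, and 1 to 4 for the interaction. The pathway genes called were 1 to 5, 8 to 14, 29 to 34, 21 to 25 and 5 to 10 in the same order, and all genes 389 to 785, 1715 to 3518, 9388 to 10356, 8177 to 8999 and 915 to 2488. Where a group was left with 1 library, that library was assumed to vary like the others. No paired analysis was possible because the groups share no replicate numbers and no label ties a library to a mouse. Depth limited *Tlr9* in BM Gr-1hi most, with 39 and 58 reads.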
